A study of Homo sapiens with 10 samples.

Results

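The 74 glycosyltransferase genes described here were those whose probe sets carry exactly 1 gene symbol from the families GALNT (GALNTL included), GCNT, B3GNT, B3GALT, B4GALT, ST3GAL, ST6GAL, ST6GALNAC, ST8SIA and FUT, together with C1GALT1 and C1GALT1C1. They were chosen by name, without regard to their signal, out of 19775 genes measured. Each gene was read by the brightest of its probe sets by mean over the 10 arrays, out of 179 probe sets in all. GALNT4, whose probe sets carry 2 symbols, B3GALT9 and ST8SIA6 had no probe set with a single symbol and were not analysed here. POFUT3 and POFUT4, the current symbols of FUT10 and FUT11, lie outside these names, and they were at -0.13 (limma adjusted p = 0.386) and 0.15 (adjusted p = 0.00483). All values are the authors' deposited log2 signals, so a difference of 1 is a 2-fold change.

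RNA came from HuCCT1 cells, an established human line grown from a cancer of the bile ducts. 5 arrays held cells with a vector labelled YAPS94A, and 5 arrays held cells with the empty vector, all from the same line in the same serum-containing medium. YAP1 is the transcriptional co-activator restrained by the Hippo kinases. The sample labels and the title name the substitution S94A, known to weaken binding to TEAD factors, while the design text names S127A, a constitutively active form. The name YAPS94A is used here as the samples carry it. Nothing in the labels tells whether the transfected cells were a clone or a pool, or whether each array had a culture of its own. The p-values therefore rest on differences among arrays that could be purely technical.

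Mucin-type O-glycans begin when a GALNT enzyme transfers GalNAc to serine or threonine of a protein in the Golgi. C1GALT1 then adds galactose to make core 1, GCNT enzymes add the GlcNAc branch that makes core 2, and B3GNT and B4GALT enzymes alternate to lengthen the chains. Sialyltransferases and fucosyltransferases cap the ends, and several of these enzymes also act on N-glycans and glycolipids. In bile duct and pancreatic epithelium the Lewis fucosyltransferase acts on sialylated chains to make sialyl Lewis a, a carbohydrate read by serum tests for these cancers.

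Of the 74 genes, 20 were higher and 16 lower in the YAPS94A cells, and 38 did not pass the test (limma, Benjamini-Hochberg adjusted p under 0.05 over all genes). That is 48.6% called, where 36.3% of all 19775 genes were called (18.6% higher and 17.6% lower). The size of the differences was modest for most members. The median absolute difference was 0.15, against 0.10 over all genes, and the median signed difference was 0.01, against -0.0038. With a change of at least 1.5-fold, 6 of the called members were above and 6 below the empty vector level, where 8.29% of all genes passed with such a difference. In bulk RNA of a culture, fewer cells making a transcript and less of it per cell cannot be told apart. At 2-fold or more 4 of the 74 genes passed (3.27% of all genes did), namely FUT2, GALNT18 and B3GALT4, which were higher, and GCNT1, which was lower. The arrays of the vectors did not overlap for 29 of the 74 genes (39.2%, against 29.1% of all genes), 16 with every YAPS94A array above every empty vector array (15.3% of all genes) and 13 with every one below (13.8% of all genes). In 10 of the 74 genes both group means lay below 4.73, the lower quartile of signals, and none of these 10 passed the limma test, with differences between -0.03 and 0.11. They were B3GALT1, B3GALT2, GALNT8, GALNT13, GALNTL5, GALNTL6, ST6GAL2, ST6GALNAC3, ST8SIA1 and ST8SIA2.

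**Figure D1:**
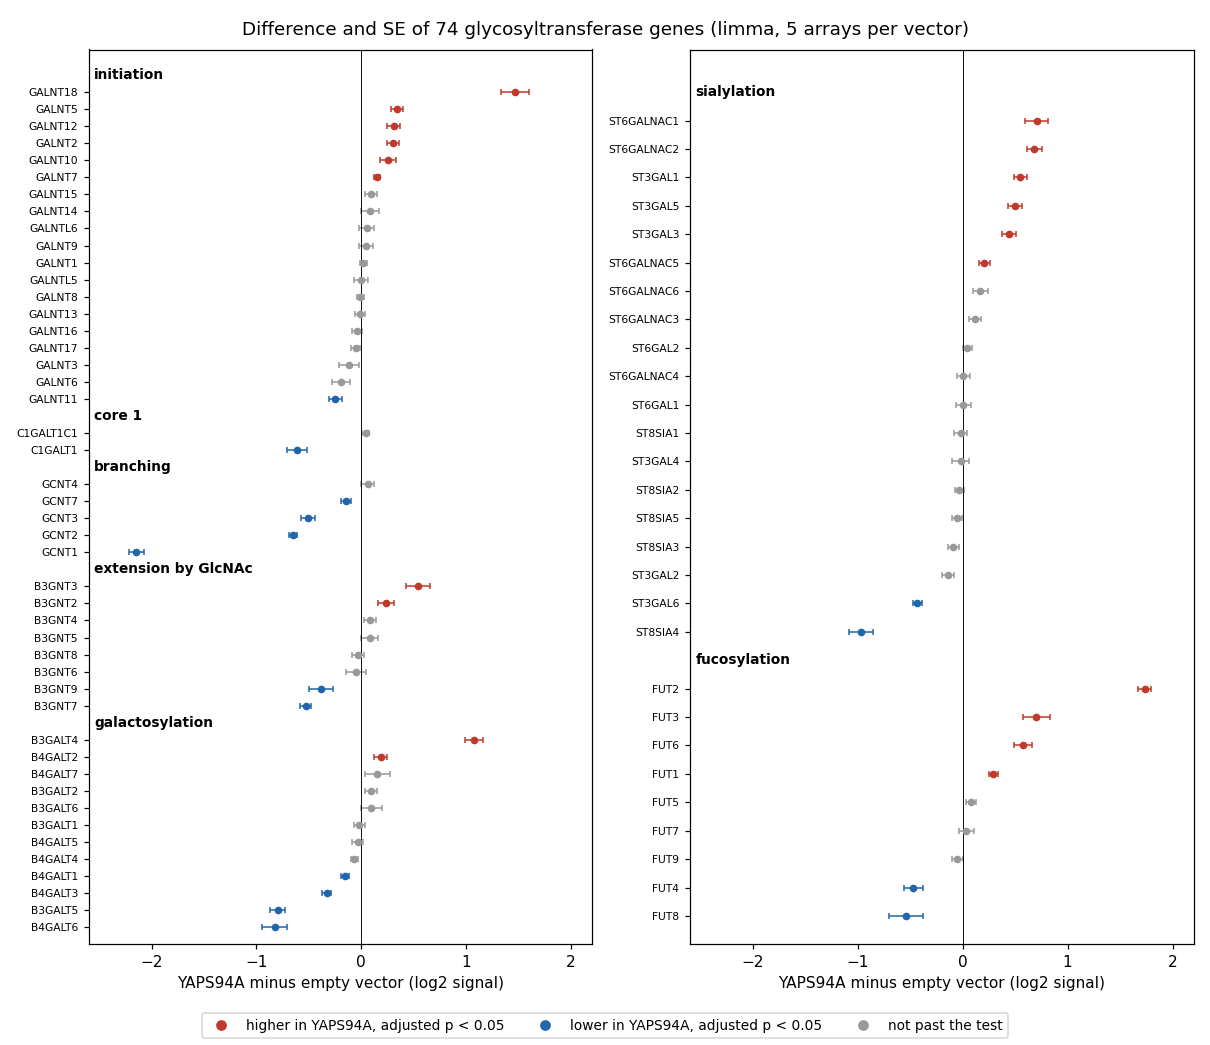
Difference of YAPS94A minus empty vector in log2 signal (x axis) with its SE from limma for each of the 74 genes (y axis), grouped by the step the enzyme family carries out, in red where higher, blue where lower and grey where not past the test. The branching genes lie at or left of 0 apart from GCNT4 (0.06), and GCNT1 (-2.14) and FUT2 (1.73) lie farthest out.

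YAP1 itself read 12.85 ± 0.18 in the YAPS94A cells and 12.32 ± 0.22 in the empty vector cells (SD, n = 5 each), a difference of 0.52 ± 0.11 (SE, limma adjusted p = 0.00277) with no overlap. Relative to the median of its chromosomal neighbours (0.34) YAP1 was at 0.18 and did not pass (adjusted p = 0.213). Array medians lay between 6.25 and 6.28. The 3' minus 5' signal of the actin control probe sets, a sign of RNA integrity, was 0.76 to 1.43 on the YAPS94A arrays and 0.84 to 1.51 on the empty vector arrays, and it was higher on the arrays numbered 1 and 2 than on those numbered 3 to 5 in both vectors. Of 7 bile duct epithelial markers, none was below the lower quartile in either vector, and 5 were higher in the YAPS94A cells. Their summed log2 signal was 16.42 to 16.46 with YAPS94A and 16.26 to 16.30 with empty vector. Summed signals of the 3 leukocyte markers measured out of 5 (7.04 to 7.24 with YAPS94A, 7.09 to 7.29 with empty vector) and of 5 endothelial markers (7.22 to 7.45 and 7.34 to 7.43) were far below those of the bile duct markers in both. CD3E, KDR and TEK lay below the lower quartile, while CD14 (6.33 and 6.35) lay just above the array medians. The 5 hepatocyte markers summed to 12.64 to 12.78 with YAPS94A and 12.82 to 12.96 with empty vector, nearly all of it from SERPINA1, while ALB read 4.72 and 4.74. The 5 fibroblast markers summed to 11.02 to 11.27 with YAPS94A and 9.58 to 9.91 with empty vector, and of these only LUM passed the test (10.70 with YAPS94A and 8.04 with empty vector), while COL3A1 was below the lower quartile in both (4.595 and 4.598). The part of these shifts in the results below was not tested.

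Promoter sequence is shown for the gene with the largest rise and for called members with TEAD letters, since the S94A of the labels concerns TEAD binding. A link between letters and calls was not tested. RefSeq windows (GRCh38.p14) of the 250 bases before an annotated gene start were found for 57 of the 74 genes, 91 windows in all, since some genes have several starts. The arrays do not show which start these cells used. The TEAD letters GGAATG, on either strand, occurred in 7 of the 91 windows (7.69%), against 11.9% of all 35116 windows. Member windows had a higher GC content (median 66.4%) than all windows (58.0%), and these shares are not matched for it. AP-1 letters TGANTCA occurred in 2 of the 91 windows (2.2%, against 6.57%), and those of the interferon-stimulated response element in none (0 of 91, against 3.02%). The 7 windows with TEAD letters belong to B4GALT5, FUT8, GALNT11, GCNT2 (2 windows), ST3GAL4 and ST6GAL2. Of these genes B4GALT5, ST3GAL4 and ST6GAL2 did not pass the limma test, with differences of -0.04, -0.02 and 0.05, and their windows are not shown. The first window below is that of FUT2, the gene with the largest rise, which holds none of the 3 motifs. The others are those of the called members with TEAD letters, FUT8, GALNT11 and GCNT2, all of them lower in the YAPS94A cells. FUT8 has 3 windows, 1 of them with motif letters, and GCNT2 has 4, of which 2 are shown. Capitals mark TEAD letters in either orientation, and in FUT8 also the AP-1 letters TGATTCA 162 bases before the start. The 4 windows of GCNT1, the gene with the largest fall, hold none of the 3 motifs. These matches are letters in a window and not shown to be bound.
FUT2, chr19:48695721-48695970, plus strand: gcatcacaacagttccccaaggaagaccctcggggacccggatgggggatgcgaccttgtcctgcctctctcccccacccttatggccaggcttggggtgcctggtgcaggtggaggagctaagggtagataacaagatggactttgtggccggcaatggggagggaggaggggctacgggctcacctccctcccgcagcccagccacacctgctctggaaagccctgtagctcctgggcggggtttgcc
FUT8, chr14:65410342-65410591, plus strand: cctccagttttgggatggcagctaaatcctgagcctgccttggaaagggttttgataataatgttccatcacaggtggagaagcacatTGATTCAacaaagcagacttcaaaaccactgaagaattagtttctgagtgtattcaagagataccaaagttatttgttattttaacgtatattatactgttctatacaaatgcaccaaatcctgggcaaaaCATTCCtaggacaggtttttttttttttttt
GALNT11, chr7:152074787-152075036, plus strand: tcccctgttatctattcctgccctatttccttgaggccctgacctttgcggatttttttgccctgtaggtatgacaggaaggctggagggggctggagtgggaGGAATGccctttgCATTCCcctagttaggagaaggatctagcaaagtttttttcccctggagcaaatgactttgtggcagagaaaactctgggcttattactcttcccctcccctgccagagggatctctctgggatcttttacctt
GCNT2, chr6:10521101-10521350, plus strand: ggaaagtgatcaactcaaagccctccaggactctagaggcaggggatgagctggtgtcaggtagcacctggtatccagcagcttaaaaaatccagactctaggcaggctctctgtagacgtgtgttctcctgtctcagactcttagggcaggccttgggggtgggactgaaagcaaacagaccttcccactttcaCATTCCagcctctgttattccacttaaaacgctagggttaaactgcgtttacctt
GCNT2, chr6:10585510-10585759, plus strand: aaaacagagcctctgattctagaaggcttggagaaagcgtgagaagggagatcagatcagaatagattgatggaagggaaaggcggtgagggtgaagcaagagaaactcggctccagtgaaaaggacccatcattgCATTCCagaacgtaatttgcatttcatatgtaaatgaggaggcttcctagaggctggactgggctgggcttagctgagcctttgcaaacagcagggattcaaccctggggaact
GALNT11 carries the TEAD letters once on each strand, 147 and 134 bases before its start, FUT8 has them 31 bases before, and the GCNT2 windows have them 55 and 114 bases before.

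Among the enzymes that start O-glycans, 6 of 19 passed upward and 1 downward (36.8% called, near the 36.3% of all genes), and 12 missed the threshold; the median difference was 0.04. GALNT18 differed most. It read 9.53, 9.77, 9.37, 9.40 and 9.25 on the YAPS94A arrays, against 8.40, 8.02, 8.13, 7.70 and 7.73 on the empty vector arrays. Every YAPS94A array lay above every empty vector array, with a difference of 1.47 ± 0.14 (SE, 2.77-fold, limma adjusted p = 3.79e-06). A second GALNT18 probe set of low signal (4.83 and 4.82) differed by 0.01, so the rise rests on 1 probe set, and in the mean of both probe sets it was 0.74. The next rises were a good deal smaller. GALNT5 rose by 0.34 ± 0.058, GALNT12 by 0.31 ± 0.059, GALNT2, a broadly expressed initiating enzyme, by 0.30 ± 0.058, GALNT10 by 0.25 ± 0.074 and GALNT7 by 0.15 ± 0.033. GALNT7 and GALNT10 act preferentially on peptides that already carry GalNAc. The groups overlapped only for GALNT10 among these 5.

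Neighbours in chromosome order had shifted with some of these genes. The median difference of the 30 nearest genes above the median signal was 0.24 for GALNT5, 0.18 for GALNT10 and 0.08 for GALNT7. Relative to it the differences of these 3 genes were 0.095, 0.075 and 0.069, no longer past the test (adjusted p = 0.213, 0.451 and 0.118). GALNT18 (neighbours at -0.05), GALNT12 (0.036) and GALNT2 (-0.03) had no such shift. GALNT2 rose on the other bright probe sets too, by 0.44 and 0.42. All 3 of these are _s_at probe sets, and the one left without that suffix (6.13 and 6.14) differed by -0.01. GALNT11, which glycosylates receptors of the LDL receptor family, was lower by 0.25 ± 0.062 (adjusted p = 0.00721), with no overlap between vectors. GALNT11 missed the threshold without the arrays numbered 1 and 2 (adjusted p = 0.0838). Of the 12 genes that did not pass, GALNT1, GALNT3, GALNT6 and GALNT14 had signals above 10 in both vectors, with differences of 0.02, -0.12, -0.19 and 0.08. GALNT9, GALNT15, GALNT16 and GALNT17 differed by -0.053 to 0.088, and the others are among the dim genes named above.

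C1GALT1, the core 1 synthase, was lower in the YAPS94A cells, while its chaperone C1GALT1C1 did not pass. C1GALT1 read 10.72, 10.84, 10.62, 10.51 and 10.33 on the YAPS94A arrays, against 11.35, 11.36, 11.21, 11.11 and 11.07 on the empty vector arrays. All YAPS94A arrays lay below all empty vector arrays, and the difference was -0.61 ± 0.093 (SE, 1.53-fold, adjusted p = 0.000236). Its other probe sets fell by 0.40 and 0.47. C1GALT1C1, without which C1GALT1 protein does not fold, read 11.79 ± 0.028 with YAPS94A and 11.75 ± 0.030 with empty vector (SD, n = 5 each), a difference of 0.04 (adjusted p = 0.359).

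The branching family had 4 of its 5 members lower and none higher (80% called, against 36.3% of all genes). GCNT1, the core 2 enzyme that adds a GlcNAc branch to core 1, showed the largest difference of all 74 genes. It read 7.33, 7.33, 7.16, 7.44 and 7.43 on the YAPS94A arrays, against 9.67, 9.44, 9.56, 9.33 and 9.42 on the empty vector arrays. The groups were far apart compared with their SDs of 0.11 and 0.13, and the difference was -2.14 ± 0.071 (SE, 4.42-fold, limma adjusted p = 6.04e-10). A second GCNT1 probe set above the median signal fell by 2.204 ± 0.14, and the neighbours of GCNT1 had a median of 0.025.

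GCNT2, which branches linear poly-N-acetyllactosamine into the I antigen, read 11.06, 11.12, 11.06, 10.97 and 11.10 with YAPS94A, against 11.68, 11.75, 11.70, 11.70 and 11.74 with empty vector. The difference was -0.65 ± 0.037 (adjusted p = 6.16e-08), and its second probe set fell by 0.39. GCNT3, the mucin-type enzyme that makes core 2 and core 4, read 5.37, 5.69, 5.66, 5.72 and 5.62 with YAPS94A, against 6.16, 6.08, 6.16, 6.01 and 6.18 with empty vector. It was lower by 0.51 ± 0.066 (adjusted p = 7.31e-05) with no overlap, from group means below the array median (5.61 and 6.12). GCNT7 was lower by 0.15 ± 0.048 with overlapping groups, and this call was lost in 11 of 23 alternatives, among them leaving out empty vector array 2, 3 or 4 or YAPS94A array 1, 2, 3 or 5 (adjusted p 0.053 to 0.0772). GCNT4, another core 2 enzyme, was at 0.06 (adjusted p = 0.551), near the low end in both vectors (5.46 and 5.40).

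**Figure D2:**
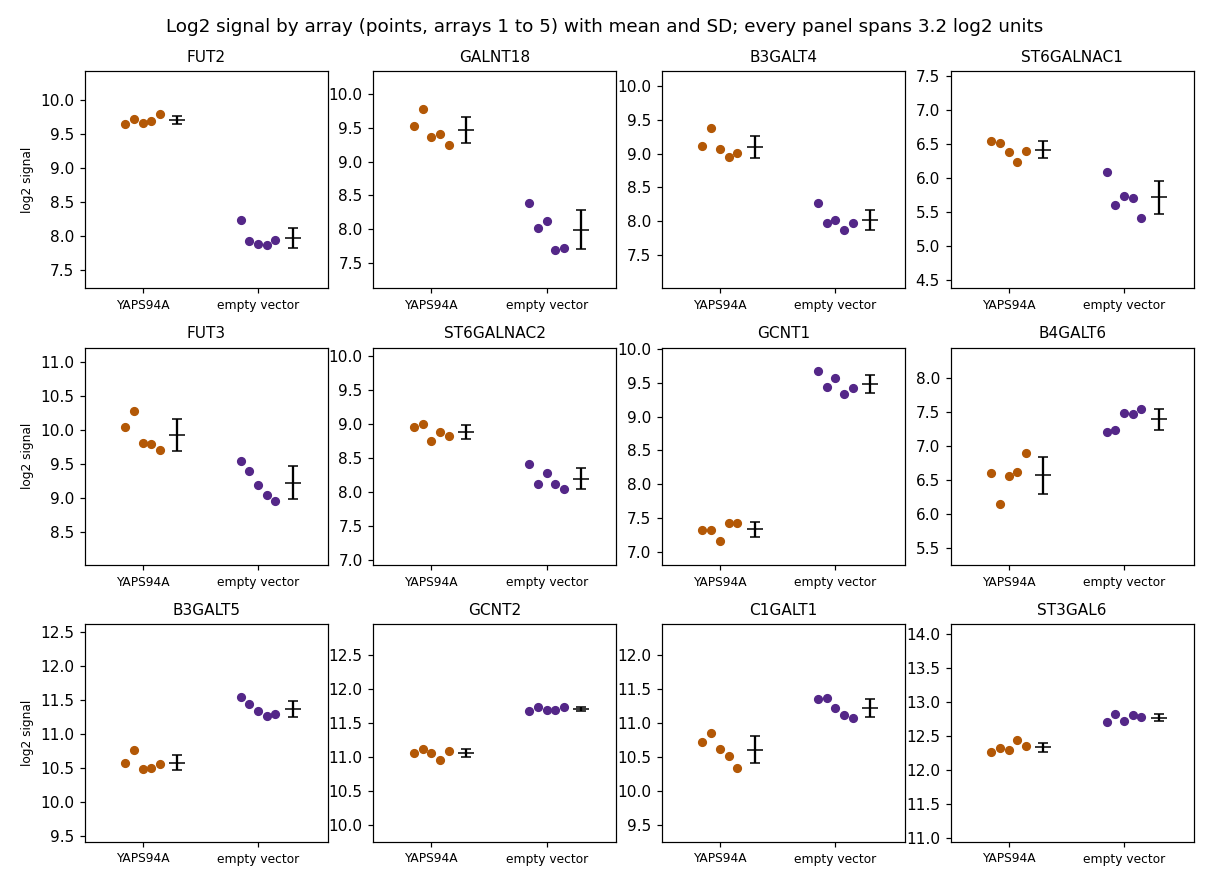
Log2 signal (y axis) of 12 genes on each array, with YAPS94A to the left of empty vector, points in the order of arrays 1 to 5, and bars giving mean and SD. All 12 panels span the same 3.2 log2 units, and in each the arrays of the vectors do not overlap.

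The enzymes that extend chains went both ways. Among 8 B3GNT genes, most of which add GlcNAc to galactose, 2 were higher, 2 lower and 4 did not pass (50% called, against 36.3% of all genes). B3GNT3, which extends core 1, read 9.48, 9.47, 9.21, 9.15 and 9.08 with YAPS94A, against 9.07, 8.80, 8.78, 8.49 and 8.54 with empty vector. The lowest YAPS94A array was just above the highest empty vector array, and the difference was 0.54 ± 0.12 (adjusted p = 0.00269). For B3GNT3 the arrays numbered 1 and 2 were the highest of either vector, and without them the difference was 0.544. B3GNT7, which acts in keratan sulfate chains, read 10.84, 10.98, 10.87, 10.96 and 10.85 with YAPS94A, against 11.47, 11.55, 11.33, 11.41 and 11.41 with empty vector. It was lower by 0.53 ± 0.048 (adjusted p = 3.49e-06) with no overlap, and a second bright probe set fell by 0.56. B3GNT2, the main poly-N-acetyllactosamine synthase, was higher by 0.24 ± 0.075 and B3GNT9 lower by 0.38 ± 0.12, both with overlapping groups. The adjusted p was 0.0279 for B3GNT2 and 0.0226 for B3GNT9, and across alternatives these reached 0.927 and 0.092. B3GNT2 missed the threshold without empty vector array 1, 2 or 3 or YAPS94A array 3, 4 or 5 (adjusted p 0.0513 to 0.0703), and B3GNT9 without empty vector array 2 or YAPS94A array 3, 4 or 5 (0.0537 to 0.0571). B3GNT5, the glycolipid enzyme lactotriaosylceramide synthase, was at 0.08 and B3GNT6, the core 3 synthase, at -0.05. A dimmer B3GNT5 probe set (6.77 and 6.46) was higher by 0.31 with no overlap (limma adjusted p = 0.0168 over all probe sets). Another B3GNT5 probe set was at -0.0084. B3GNT4 and B3GNT8 were at 0.08 and -0.03.

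Among 12 galactosyltransferase genes 2 were higher (16.7%, against 18.6% of all genes) and 4 lower (33.3%, against 17.6%). B3GALT4, which makes the gangliosides of the GM1 type, read 9.11, 9.37, 9.07, 8.95 and 9.002 on the YAPS94A arrays, against 8.27, 7.97, 8.03, 7.87 and 7.98 on the empty vector arrays. Every YAPS94A array was above every empty vector array, with a difference of 1.08 ± 0.088 (SE, 2.11-fold, adjusted p = 1.35e-06), and a second probe set, below the lower quartile, rose by 0.42. B3GALT5, which makes the type 1 chains that carry Lewis a, went the other way. It read 10.58, 10.77, 10.48, 10.50 and 10.55 with YAPS94A, against 11.54, 11.44, 11.34, 11.26 and 11.29 with empty vector, a difference of -0.80 ± 0.068 (adjusted p = 1.84e-06). Its second bright probe set fell by 0.87 ± 0.14.

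In the B4GALT family 1 of 7 genes was higher and 3 were lower (14.3% and 42.9%, against 18.6% and 17.6% of all genes). B4GALT6, a lactosylceramide synthase, read 6.61, 6.15, 6.57, 6.62 and 6.90 with YAPS94A, against 7.21, 7.25, 7.49, 7.48 and 7.56 with empty vector. The groups did not overlap and the difference was -0.83 ± 0.12 (adjusted p = 0.000169), while its 3 other probe sets, of low signal, were at -0.0052 to -0.30 and missed the threshold. B4GALT3, which makes N-acetyllactosamine, was lower by 0.33 ± 0.041. B4GALT1, the ubiquitous enzyme of that kind and part of lactose synthase, read 12.68 ± 0.030 with YAPS94A and 12.84 ± 0.047 with empty vector (SD, n = 5 each), a difference of -0.15 ± 0.035 (adjusted p = 0.00425). The neighbours of B4GALT1 on chromosome 9 had a median of -0.27, and relative to them B4GALT1 was at 0.11 (adjusted p = 0.0237), so the sign depends on whether neighbours are subtracted. B4GALT1 is read by an _s_at probe set, and without _x_at and _s_at probe sets it was at -0.192 and did not pass (adjusted p = 0.124). That value is from a probe set of low signal (5.32 and 5.51). A brighter _x_at probe set of B4GALT1 (7.445 and 7.449) was at -0.0042, while dim _x_at and _s_at ones were at -0.30 and -0.26 and passed. B4GALT2 was higher by 0.18 ± 0.060 with overlapping groups, and its adjusted p of 0.0316 reached 0.0835 across alternatives. B4GALT2 missed the threshold without empty vector array 3, 4 or 5 or YAPS94A array 1, 2 or 4 (adjusted p 0.051 to 0.0761). B4GALT4, B4GALT5 (the other lactosylceramide synthase) and B4GALT7 were at -0.07, -0.04 and 0.15, and B3GALT6 was at 0.095. A second B3GALT6 probe set (7.70 and 8.06) was lower by 0.36 with overlapping groups (limma adjusted p = 0.0377 over all probe sets). Another was at -0.11 and did not pass. B4GALT7 and B3GALT6 build the linker of proteoglycans.

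Of 19 sialyltransferase genes 6 were higher, 2 lower and 11 did not pass (42.1% called, against 36.3% of all genes). The 6 higher genes belong to the ST3GAL and ST6GALNAC families. ST6GALNAC1, the sialyl-Tn synthase, read 6.54, 6.52, 6.38, 6.24 and 6.40 on the YAPS94A arrays, against 6.09, 5.60, 5.73, 5.71 and 5.42 on the empty vector arrays. The groups did not overlap, although the empty vector mean (5.71) was below the array median. The difference was 0.70 ± 0.11 (SE, 1.63-fold, adjusted p = 0.000243). ST6GALNAC2, which sialylates the GalNAc of core 1, read 8.95, 8.998, 8.74, 8.87 and 8.82 with YAPS94A, against 8.41, 8.12, 8.27, 8.12 and 8.04 with empty vector, a difference of 0.68 ± 0.074 (adjusted p = 1.46e-05). Both genes lie on chromosome 17, where neighbours had medians of 0.17 and 0.14, and relative to these they were at 0.536 and 0.544. ST6GALNAC5, a ganglioside enzyme, was higher by 0.20 ± 0.053 (adjusted p = 0.00908), with overlapping groups. ST6GALNAC3, ST6GALNAC4 and ST6GALNAC6 were at 0.11, 0.0067 and 0.17 and did not pass.

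ST3GAL1, which caps core 1 with sialic acid, read 10.08, 9.90, 9.95, 10.02 and 10.11 with YAPS94A, against 9.63, 9.30, 9.48, 9.42 and 9.47 with empty vector. The difference was 0.55 ± 0.063 (1.46-fold, adjusted p = 2.57e-05), and its other probe sets rose by 0.37 and 0.50. ST3GAL5, the GM3 ganglioside synthase, read 9.501, 9.44, 9.56, 9.68 and 9.65 with YAPS94A, against 8.93, 8.96, 9.12, 9.21 and 9.13 with empty vector. It was higher by 0.50 ± 0.065 with no overlap. ST3GAL3, which sialylates type 1 chains, was higher by 0.44 ± 0.067, also with no overlap, and in the mean of its 7 probe sets by 0.12. ST3GAL6, which sialylates N-acetyllactosamine, was lower. It read 12.26, 12.32, 12.29, 12.43 and 12.35 with YAPS94A, against 12.70, 12.82, 12.72, 12.80 and 12.78 with empty vector, a difference of -0.43 ± 0.042 (adjusted p = 6.29e-06). Of the other ST3GAL6 probe sets 2 fell by more, 1.20 ± 0.054 and 1.12 ± 0.092, and one was at -0.24 and missed the threshold, so the size of this fall depends on the probe set. ST3GAL2 and ST3GAL4 were at -0.14 and -0.02 and did not pass.

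ST6GAL1, the sialyltransferase of N-glycans, read 10.114 ± 0.13 with YAPS94A and 10.111 ± 0.12 with empty vector (SD, n = 5 each), a difference of 0.0033 ± 0.072 (adjusted p = 0.981). ST8SIA4, which makes polysialic acid, read 4.66, 4.65, 4.88, 4.66 and 4.73 on the YAPS94A arrays, against 5.28, 5.53, 5.81, 5.9998 and 5.80 on the empty vector arrays. The groups did not overlap and the difference was -0.97 ± 0.12 (adjusted p = 3.3e-05), but the YAPS94A mean of 4.72 lies below the lower quartile of signals, so the size of the fold is uncertain. ST8SIA3 and ST8SIA5 were at -0.09 and -0.06. ST8SIA1 was at -0.02 on its chosen probe set, while its second probe set fell by 0.38 ± 0.063 (adjusted p = 0.000614 over all probe sets), both from signals below the lower quartile.

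Among 9 fucosyltransferase genes 4 were higher, 2 lower and 3 did not pass (66.7% called, against 36.3% of all genes). FUT2, the secretor enzyme that makes the H antigen in epithelia, showed the largest rise of the 74 genes. It read 9.65, 9.73, 9.67, 9.69 and 9.79 on the YAPS94A arrays, against 8.23, 7.93, 7.89, 7.87 and 7.95 on the empty vector arrays. The lowest YAPS94A array was well above the highest empty vector array, and the difference was 1.73 ± 0.066 (SE, 3.32-fold, limma adjusted p = 1.91e-09). A second FUT2 probe set, below the median signal, rose by 0.24 ± 0.061, and in the mean of both probe sets the rise was 0.99. Both are _s_at probe sets, which are open to cross-hybridisation, and FUT2 had no probe set without that suffix. FUT1, which makes the H antigen of red cells and lies next to FUT2 on chromosome 19, rose by 0.29 ± 0.043, with neighbours of both genes at a median of 0.039.

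FUT3, the Lewis enzyme, read 10.05, 10.28, 9.81, 9.80 and 9.71 with YAPS94A, against 9.54, 9.40, 9.19, 9.04 and 8.95 with empty vector. The groups did not overlap, and the difference was 0.70 ± 0.13 (adjusted p = 0.00106). A second bright FUT3 probe set rose by 0.65 ± 0.069. FUT6, a close relative of FUT3, read 9.17, 9.29, 8.99, 8.92 and 8.91 with YAPS94A, against 8.59, 8.57, 8.60, 8.37 and 8.29 with empty vector. The groups did not overlap, and FUT6 rose by 0.57 ± 0.088 (adjusted p = 0.000262); FUT5, the other relative beside them on chromosome 19, was at 0.08. The 3 genes are closely similar in sequence. FUT6 is read here by an _x_at probe set and FUT3 by an _s_at one, which are open to cross-hybridisation, so their signals may be shared. The brightest FUT6 probe set with neither suffix, of low signal (5.30 and 5.21), was at 0.087 (adjusted p = 0.237).

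FUT4, which makes Lewis x, went down. It read 9.92, 9.93, 10.17, 10.20 and 10.32 on the YAPS94A arrays, against 10.35, 10.50, 10.67, 10.69 and 10.70 on the empty vector arrays, a difference of -0.47 ± 0.092 (adjusted p = 0.00155). Its second bright probe set fell by 0.31 ± 0.044, while the neighbours of FUT4 had a median of 0.19. FUT8, which adds the core fucose of N-glycans, was lower by 0.54 ± 0.16 (adjusted p = 0.0201). Its groups overlapped, with 10.77, 10.53, 11.16, 11.10 and 11.24 with YAPS94A against 11.31, 11.08, 11.81, 11.67 and 11.62 with empty vector, and the arrays numbered 1 and 2 were the lowest in both vectors. With the array number as a block the adjusted p for FUT8 was 2.51e-05, and without YAPS94A array 1 or empty vector array 3 it was 0.0529 or 0.0532, past the threshold in neither case. FUT8 is read by an _s_at probe set, and without _x_at and _s_at probe sets the adjusted p was 0.0856 at a difference of -0.609. FUT7 and FUT9, of the Lewis x kind, were at 0.03 and -0.05.

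**Figure D3:**
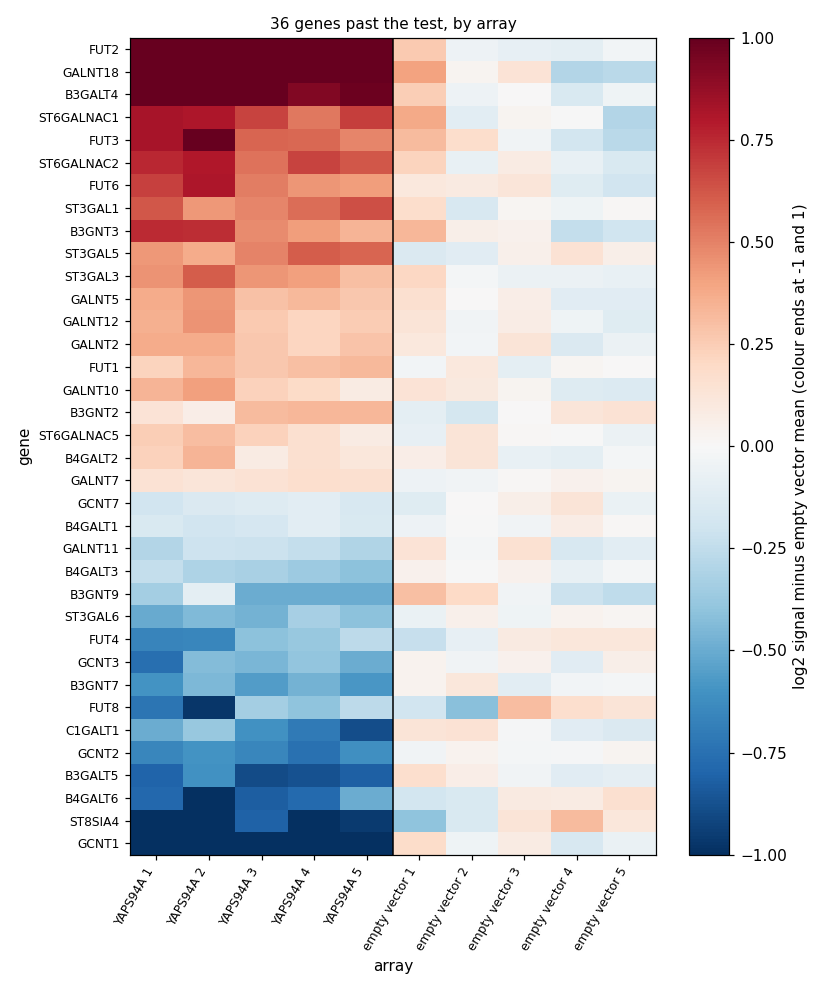
Log2 signal of the 36 genes past the test (rows, ordered by difference) on each array (columns, YAPS94A left of empty vector), as the deviation from the gene's empty vector mean, with colours ending at -1 and 1. FUT2, GALNT18 and B3GALT4 stand out at the top and GCNT1 at the bottom, and FUT8 varies between arrays of the same vector.

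The other probe sets of the called genes mostly moved with the chosen ones where their signal was high. The 36 called genes had 62 other probe sets, 30 of them with a mean above the array median of 6.27. All 30 had the sign of the chosen probe set, a B4GALT1 probe set at only -0.0042, and 23 passed over all probe sets in that direction. Probe sets of 1 gene share the same arrays and the same transcript, so this is a check of the reading and not an independent one. Uncalled genes, such as B3GALT6 and B3GNT5 above, are not in this count.

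**Figure D4:**
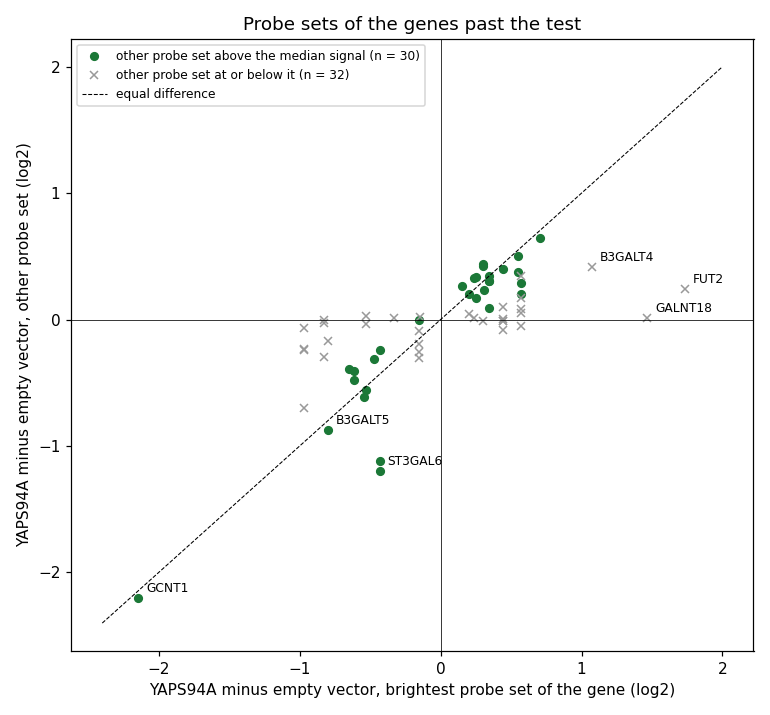
Difference of YAPS94A minus empty vector (log2) on the other probe sets of the 36 called genes (y axis) against that on the brightest probe set (x axis), with green points for the 30 above the median signal, grey crosses for the rest and a dashed line of equal difference. All 30 green points share the sign of the brightest probe set, and ST3GAL6 was at -1.20, -1.12 and -0.24 on its other probe sets, against -0.43 on the brightest.

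Genes that supply or accompany these enzymes are given from lists chosen by role, and their counts stand against 18.6% higher and 17.6% lower among all genes. For the nucleotide sugars UDP-GalNAc, UDP-Gal and UDP-GlcNAc, 4 of 13 measured genes were higher and 4 lower (30.8% each), with a median of 0.02. UGP2, which makes UDP-glucose, rose by 0.33 ± 0.035 (0.23 and adjusted p = 0.0681 without _x_at and _s_at probe sets) and GALT, of galactose use, by 0.34 ± 0.043. GALT lies among neighbours at -0.27, and the mean of its probe sets was at 0.04 and did not pass (adjusted p = 0.574).

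For sialic acid supply and removal 5 of 13 genes were higher and 3 lower (38.5% and 23.1%), with a median of -0.01. GNE, the rate-limiting enzyme of sialic acid synthesis, fell by 0.44 ± 0.044 and CMAS, which activates sialic acid, by 0.37 ± 0.039. Their neighbours had medians of -0.29 and -0.34, and relative to them CMAS was at -0.03 (adjusted p = 0.599). For GDP-fucose supply and fucose removal 5 of 12 were higher and 5 lower (41.7% each), with a median of 0.09. The 5 lower genes include POFUT1 (-0.28) and POFUT2 (-0.58), which transfer fucose to proteins and neither supply nor remove it. PMM1, a phosphomannomutase, rose by 1.80 ± 0.057 (3.49-fold), with 9.72, 9.55, 9.55, 9.65 and 9.40 on the YAPS94A arrays against 7.79, 7.80, 7.71, 7.81 and 7.73 on the empty vector arrays. GFUS, which completes GDP-fucose synthesis, rose by 0.32 ± 0.042. GMDS, among the 5 lower genes and named after its value was seen, fell by 0.42 ± 0.080 (limma adjusted p = 0.00121) with no overlap.

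Among 20 capping and sulfation genes outside the families 6 were higher and 1 lower (30% and 5%), with a median of 0.02. CHST9, a sulfotransferase of terminal GalNAc, read 8.71, 8.63, 8.50, 8.49 and 8.60 with YAPS94A, against 6.04, 5.92, 6.18, 6.05 and 5.88 with empty vector, a difference of 2.57 ± 0.063 on an _x_at probe set. GAL3ST4, which sulfates galactose of core 1, rose by 0.93 ± 0.041. Of 14 enzymes of N-glycan branching and trimming 4 were higher and 2 lower (28.6% and 14.3%), with a median of 0.05. MGAT4B and MGAT1, which add GlcNAc to the mannose core, rose by 0.49 ± 0.052 and 0.31 ± 0.045. Of 22 mucin-type acceptor proteins 5 were higher and 4 lower (22.7% and 18.2%), with a median of -0.05. The membrane mucins MUC1 and MUC4 rose by 3.29 ± 0.061 and 2.67 ± 0.078, MUC4 by 1.25 in the mean of its 6 probe sets, while MUC13, another membrane mucin named after its value was seen, fell by 0.90 ± 0.060 (adjusted p = 2.46e-07).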

How the data were processed

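Per the labels' protocols, total RNA of 10 HuCCT1 samples was amplified by a NuGEN system and labelled with biotin for Affymetrix arrays. The authors deposited log2 signals of 54675 probe sets (2.86 to 14.43). Their summarisation and normalization are not given in the sources used here; no further scaling was applied. The number of arrays limits the precision. Gene symbols came from GEO's platform annotation (41097 with 1 symbol, 1801 with several, 11777 with none), with symbols updated through RefSeq (GRCh38.p14), which held all 74 members. The 62 control probe sets were not tested.

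Vectors were compared with limma 3.58.1 in R 4.3.3 (lmFit and eBayes, all 10 arrays, no covariate, two-sided, Benjamini-Hochberg adjustment over 19775 genes, threshold 0.05). The fit was tested on simulated data. The members, the lists and the tests were chosen with earlier results of these data known. The genes named by rule were the 10 largest rises and 10 largest falls among called genes without overlap, C1GALT1, C1GALT1C1, the brightest gene of each family, 2 genes per list, and YAP1. Values on every array are printed for the 20 rises and falls, PMM1, CHST9 and FUT8. FUT8 per array, GMDS, MUC13, POFUT1 and POFUT2 were added after their values were seen, and the other members by value so that every member is accounted for. Both vectors share the array numbers 1 to 5, and arrays with the same number deviated together from the means of their vectors (correlation 0.102 to 0.59), above 0.1 in all 5 pairs, so the numbers were treated as a possible pairing. This comes from the check, not from a stated batch. Arrays with different numbers were not compared in this way, so the check cannot show that arrays with the same number belong together. The actin 3' minus 5' signal was highest on empty vector array 1 (1.51) and on YAPS94A array 2 (1.43). Arrays of 1 vector correlated at 0.9957 to 0.9991 and arrays of different vectors at 0.9867 to 0.9902; none held identical values.

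Alternatives covered other normalizations, filters on dim genes, other choices of probe set, adjustment over all probe sets, an intensity trend, array weights, the array number as a block, each array left out, and subtraction of the median of the 30 nearest neighbours above the median signal. An RNA quality covariate and leaving out the arrays numbered 1 and 2 were added after seeing the data.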

Additional observations from a re-analysis of the deposited data

Results flagged for a closer look

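In 5 of the 106 groups of 5 arrays checked, for 53 genes, 1 array stood far from the other 4 by Dixon's test, which chance alone gives in about 1 of 20 groups. FUT2 read 8.23 on empty vector array 1, against 7.87 to 7.95 on the others, still below all YAPS94A arrays. ST3GAL3 read 7.5 on empty vector array 1, against 7.22 to 7.28 on the others. GCNT3 read 5.37 on YAPS94A array 1, against 5.62 to 5.72 on the others. GAL3ST4 read 7.03 on YAPS94A array 5, against 7.12 to 7.15 on the others, and MUC4 read 6.5 on empty vector array 5, against 6.74 to 6.83 on the others.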

How the results depend on the processing

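Of the 36 called glycosyltransferase genes, 24 (13 higher and 11 lower) passed in the same direction under each of the 23 alternatives that gave them a value. With the array number as a replicate block 21 members were higher and 17 lower, and the block lost no member's call while adding GALNT6 and ST6GALNAC6. Without _x_at and _s_at probe sets, which left 66 members, 12 members were called higher (20 with all probe sets), and 4 sialic acid genes (8) and 4 capping and sulfation genes (7) were called. Of the 36 calls 25 held there and 5 were lost (B3GNT2, B4GALT1, FUT6, FUT8 and GALNT2). FUT2, FUT3, B4GALT3, GALNT7, GALNT12 and ST3GAL5 had no probe set without these suffixes, so their calls were not checked by this alternative. In the mean of probe sets 5 sialic acid genes were called, and leaving out 1 array gave 5 to 8, with 5 without YAPS94A array 4 or YAPS94A array 5. The number of all genes called lay between 5739 and 8715. Of the 74 members 23 turned direction under at least 1 alternative, 21 of them not past the test to begin with. Among genes named by the rule or called, directions turned for B4GALT1 relative to its neighbours (0.111), for GALNT2 (-0.013) and B3GNT5 (-0.008) without _x_at and _s_at probe sets, and for C1GALT1C1 in the mean of probe sets (-0.005). ST6GAL1, near 0 throughout, was at -0.01 in the mean of probe sets, -0.028 relative to neighbours, -0.027 with the RNA quality covariate and -0.045 to 0.055 with 1 array left out. Relative to neighbours 5 uncalled members passed, namely GALNT8 (0.213), ST6GALNAC3 (0.218), ST8SIA1 (0.338), GALNT13 (-0.159) and ST8SIA3 (-0.165). All but ST8SIA3 are among the dim genes. GALNT8, ST8SIA1 and GALNT13 themselves differed by only -0.01, -0.02 and -0.01. Their neighbours had medians of -0.22, -0.36 and 0.15, so on the chosen probe sets these passes come mostly from the subtracted median. The second ST8SIA1 probe set fell by 0.38, as given above, and ST8SIA1 also passed in the mean of probe sets. The calls of GNE (-0.153), GFUS (0.155), MGAT1 (0.147) and ST6GALNAC5 (0.329) held relative to neighbours with values over 1.5 times away. In the mean of probe sets B3GNT7 (-0.275), B4GALT3 (-0.16), B4GALT6 (-0.29), ST8SIA4 (-0.442), ST3GAL6 (-0.747), FUT6 (0.208) and CMAS (-0.181) still passed. The cause of these changes was not tested. Without detection calls, background limits folds of genes near the lower quartile of signals.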
